A study of Homo sapiens with 4 samples.

Results

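The epidermal differentiation complex (EDC) is a cluster of genes on the long arm of human chromosome 1 that are used in the outer layers of the epidermis. Its open chromatin was examined here in fibroblasts with and without ΔNp63α. The 58 member genes, of 20007 protein-coding genes in GENCODE release 44, fall into 16 S100 genes, 18 late cornified envelope (LCE) genes, 10 small proline-rich protein (SPRR) genes, 7 S100 fused-type genes (TCHHL1, TCHH, RPTN, HRNR, FLG, FLG2 and CRNN) and 7 other genes (CRCT1, SMCP, IVL, LORICRIN, PRR9, PGLYRP3 and PGLYRP4). A peak was assigned to a member when its summit lay in the gene body or no more than 20 kb from a transcription start site (TSS) of the gene, and a peak with a −log10 q of 10 or more was called an open region. By this rule the complex held 41 of the 56680 open regions of one group (CTR) and 62 of the 62343 open regions of the other (p63).

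Chromatin accessibility was measured by ATAC-seq, in which a transposase cuts accessible DNA and tags it for sequencing. All cells were BJ, an established line of human dermal fibroblasts, made as polyclonal lines with a reverse tetracycline transactivator and a retroviral doxycycline-inducible construct. The CTR group expressed KLF4 alone, and the p63 group expressed ΔNp63α joined to KLF4 by a self-cleaving peptide, so KLF4 was present in both. The methods of the study give 72 h of doxycycline, 2 replicates per group and a new induction of the same lines for each replicate. The deposited lists hold both replicates of a group together, so no value below has a spread between replicates, no test between the groups was possible, and every interval covers counting error only. The number of reads at each summit, solved from the deposited values, had a median of 33 in both lists and was at least 15 at the threshold. Background coverage was 1.18 reads in CTR and 1.13 in p63. Of 8 fibroblast markers, 7 had an open region within 1 kb of a TSS in both lists, the exception being COL3A1. Of 6 keratinocyte markers, only CDH1 had one, again in both lists.

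In the upper epidermis, keratinocytes replace their plasma membrane by the cornified envelope, a sheet of proteins cross-linked by transglutaminases. Involucrin, loricrin and the SPRR and LCE proteins are building blocks of this sheet, the fused-type proteins such as filaggrin and trichohyalin bind or bundle keratin filaments, and the S100 proteins are small calcium-binding proteins, several of which are antimicrobial or found in many cell types. p63 is the master regulator of stratified epithelia and binds DNA as a tetramer at a site made of a pair of similar ten-base arms, while the KLF family and AP-1 bind short GC-rich and TGA-containing motifs, respectively.

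Of the 62 open regions of the p63 list at the complex, 8 held a p63 site within 100 bp of the summit. They are shown first because they join the sequence of the locus to the accessibility values that follow. A site was a match to the p53/p63 family consensus of 20 bases, in which the central C and G of each arm had to match and up to 3 of the remaining 16 positions could differ. Each line gives the plus strand of hg38 from 5′ to 3′, with the site in capitals and 20 bases on either side. Each is named by the nearest member gene, and a gene that is no member can lie closer.
RPTN, chr1:152167926-152167985: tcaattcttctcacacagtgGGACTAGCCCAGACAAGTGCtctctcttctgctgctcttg
LCE5A, chr1:152502986-152503045: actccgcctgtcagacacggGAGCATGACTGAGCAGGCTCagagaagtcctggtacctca
LCE4A, chr1:152718403-152718462: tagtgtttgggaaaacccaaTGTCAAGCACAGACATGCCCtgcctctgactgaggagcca
LCE6A, chr1:152855761-152855820: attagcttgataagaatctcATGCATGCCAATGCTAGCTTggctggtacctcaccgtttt
LCE6A, chr1:152858206-152858265: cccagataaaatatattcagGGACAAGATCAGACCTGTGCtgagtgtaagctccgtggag
S100A10, chr1:151989693-151989752: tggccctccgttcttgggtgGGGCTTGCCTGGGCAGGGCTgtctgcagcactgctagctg
S100A11, chr1:152024292-152024351: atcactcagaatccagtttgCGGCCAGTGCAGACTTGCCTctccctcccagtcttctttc
S100A12, chr1:153371341-153371400: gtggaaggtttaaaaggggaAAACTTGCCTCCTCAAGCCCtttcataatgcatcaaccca
The site near RPTN had 1 mismatch, those near LCE5A and S100A10 had 2, and the other 5 had 3. Of these 8 regions, 5 lay near an LCE or a fused-type gene and 3 near an S100 gene, and none was near an SPRR gene.

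The complex had more open regions with p63 than without it, and among the subgroups the LCE genes gained the most regions in number. Regions were called shared when they overlapped an open region of the other list by at least 1 bp. They were called p63-only or CTR-only when they did not, a rule that favours more reads in the list named. Of the 62 p63-list regions, 35 were shared and 27 were p63-only, which is 43.5% (95% Wilson interval 31.9 to 55.9%). Over the whole p63 list the p63-only share was 23.9%, and it was 22.2% for the 44757 regions near any protein-coding gene by the same rule. Among the 27 p63-only regions, 15 matched a weaker CTR peak under the threshold and 12 had no CTR peak at any level. These 12 absent regions made up 19.4% (11.4 to 30.9%) of the p63-list regions at the complex, against 12% over the whole list and 11.1% near any protein-coding gene. In the other direction, 6 of the 41 CTR-list regions were CTR-only, which is 14.6% (6.88 to 28.4%), against 16.5% over the whole CTR list. All 6 had a peak below the threshold in the p63 list, so 0 of 41 were absent from it (Wilson upper bound 8.57%), against 3.29% over the whole CTR list.

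**Figure D1:**
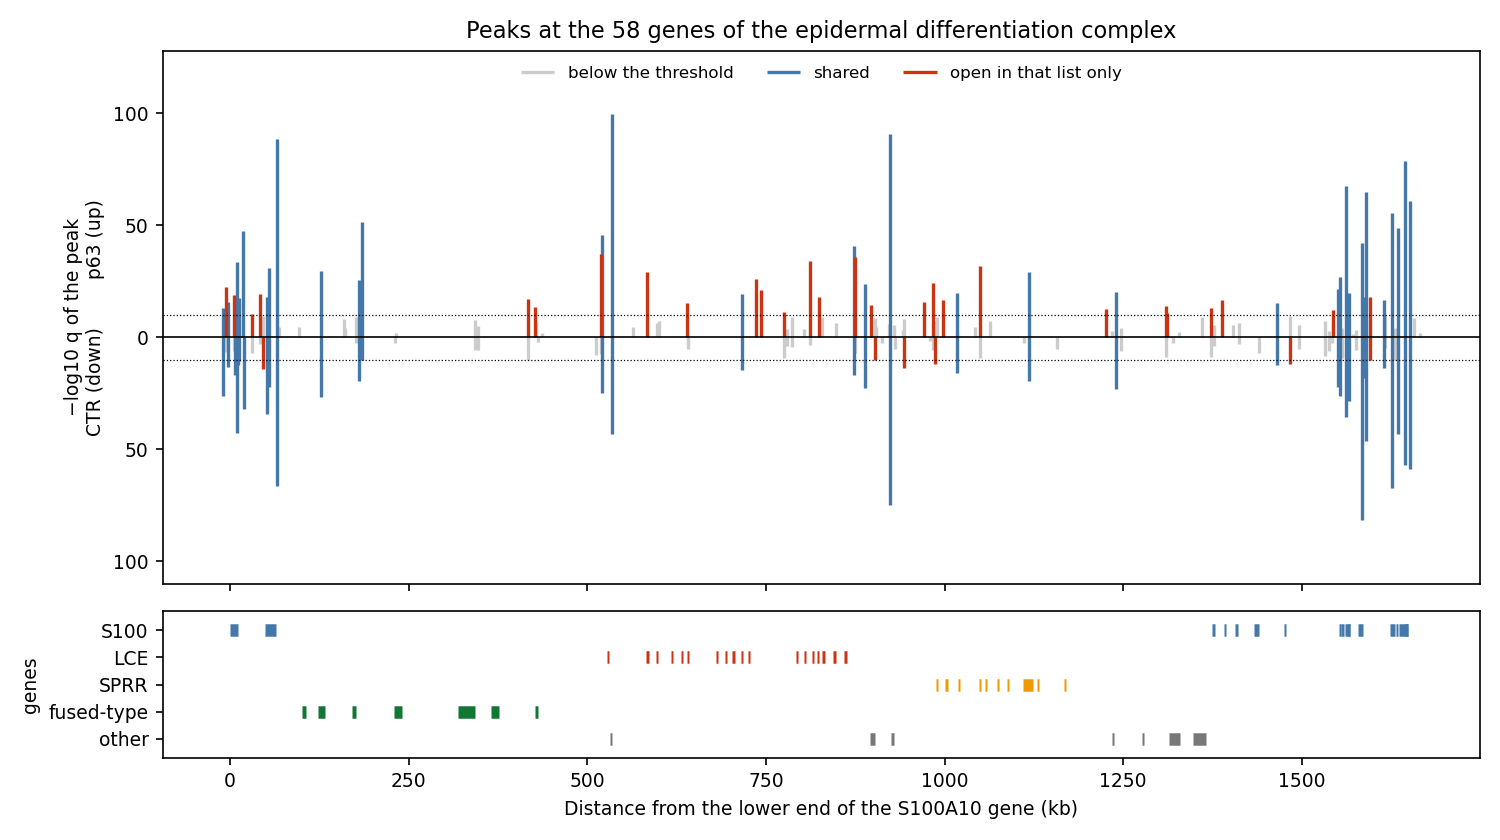
Peaks at the epidermal differentiation complex by position. The x axis is the distance in kb from the lower end of the S100A10 gene, bars above 0 give the −log10 q of each p63-list peak and bars below 0 that of each CTR-list peak, dotted lines mark the threshold of 10, and the lower panel shows the genes of each subgroup. The 27 p63-only regions (red, above) lie mostly between the fused-type and S100A8 genes, and the 6 CTR-only regions (red, below) have a −log10 q of at most 13.95.

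Without the threshold, 84 CTR and 112 p63 peaks were deposited at the complex. Of the p63 peaks, 40 (35.7%) had no CTR counterpart, against 27.1% over all p63 peaks, and of the CTR peaks 11 (13.1%) had no p63 counterpart, against 21.4% over all CTR peaks. The values just inside the threshold were 10.02 near SMCP and 10.03 near RPTN in CTR and 10.65 near S100A10 and 10.9 near PGLYRP3 in p63. Just outside it were 9.91 near S100A16 and 9.88 near CRNN in CTR, and 9.55 near S100A11 and 9.54 near S100A7 in p63.

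By subgroup, the LCE genes had 4 open regions in CTR and 13 in p63, the SPRR genes 3 and 6, the fused-type genes 3 and 5, the other genes 7 and 11, and the S100 genes 26 and 31. A region within 20 kb of genes of more than 1 subgroup was counted in each. Per 100 kb of window this gave 1.22 and 3.95 regions at the LCE genes and 1.36 and 2.72 at the SPRR genes. It gave 1.14 and 1.89 at the fused-type genes, 2.61 and 4.1 at the other genes and 7.07 and 8.42 at the S100 genes. Near all protein-coding genes the density was 2.6 in CTR and 2.84 in p63. In CTR the LCE, SPRR and fused-type windows were therefore sparser than the average window. In p63 the LCE windows were denser than it, as were the windows of the other genes and of the S100 genes.

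The p63-only share was 69.2% (9 of 13, 42.4 to 87.3%) at LCE genes and 66.7% (4 of 6, 30 to 90.3%) at SPRR genes. It was 54.5% (6 of 11, 28 to 78.7%) at the other genes, 40% (2 of 5, 11.8 to 76.9%) at fused-type genes and 25.8% (8 of 31, 13.7 to 43.2%) at S100 genes. The intervals of the LCE, SPRR and other genes lay above the whole-list share of 23.9%, whereas those of the S100 and fused-type genes included it. The intervals of the subgroups overlapped each other. Neighbouring regions may not be independent and some were counted in several subgroups, so these intervals are no test of a difference.

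**Figure D2:**
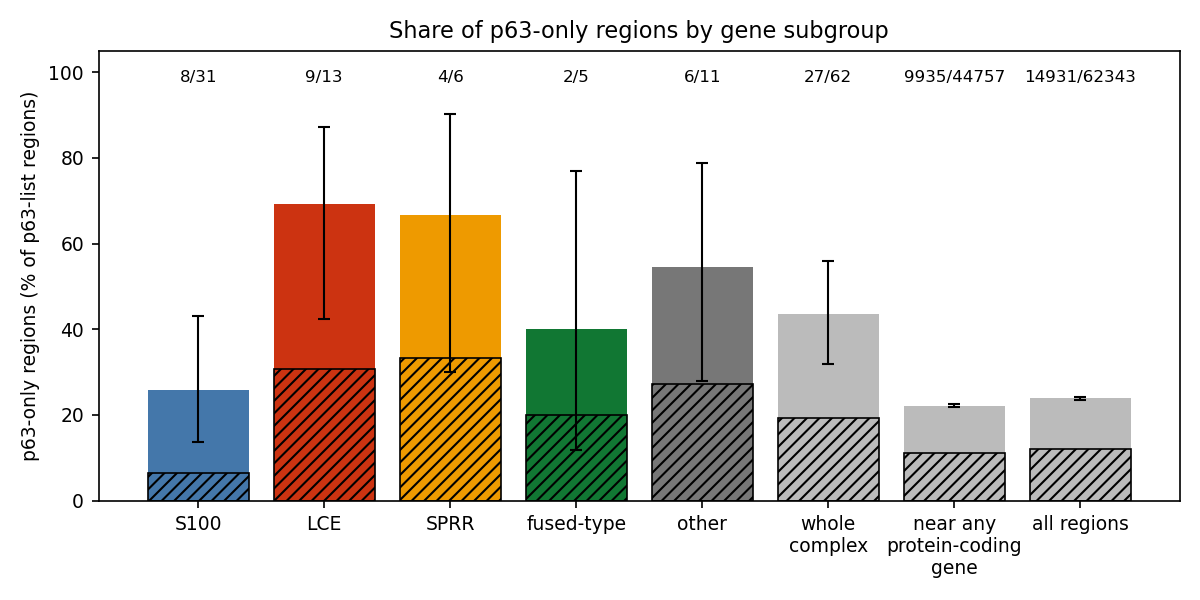
Share of the p63-list open regions that were p63-only, in percent, for each gene subgroup, for the whole complex, for regions near any protein-coding gene and for all regions. Bars give the share, whiskers its 95% Wilson interval, the hatched part the regions with no CTR peak at any level, and the figures on top the counts; the LCE bar stands at 69.2% and the S100 bar at 25.8%, beside 23.9% for all regions.

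The number of members with an open region was 28 of 58 in CTR (48.3%, against 85.1% of all protein-coding genes) and 45 of 58 in p63 (77.6%, against 86.7%). For 17 members only the p63 list had an open region, for 0 only the CTR list. This count was not made over all protein-coding genes, so no share stands beside it. These 17 were LCE3E, LCE3D, LCE3B, LCE3A, LCE1F, LCE1E, LCE1D, LCE1C and LCE1B among the LCE genes, SPRR1B and SPRR2D, the fused-type gene CRNN, PGLYRP3 and PGLYRP4, and S100A9, S100A12 and S100A8. A p63-only region lay at 31 members (53.4%, against 40.1% of protein-coding genes), one absent from CTR at 19 (32.8%, against 23.9%), and a CTR-only region at 7 (12.1%, against 27.4%). Because a region can lie within 20 kb of several of these closely packed genes, the members are not independent of each other.

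An open region within 1 kb of a TSS was found for 10 members in CTR (17.2%, against 64.3% of all protein-coding genes) and for 13 in p63 (22.4%, against 64.8%). The 10 members in CTR were all S100 genes, namely S100A10, S100A11, S100A6, S100A4, S100A3, S100A2, S100A16, S100A14, S100A13 and S100A1, and all 10 had such a region in p63 too. The 3 that were added in p63 were all LCE genes, LCE3E, LCE3A and LCE1C. No SPRR gene, no fused-type gene and none of the 7 other genes had an open region this close to a TSS in either list. Of the 27 p63-only regions 3 (11.1%) were within 1 kb of a member's TSS and 21 were intergenic, whereas 12 of the 35 shared p63-list regions (34.3%) were within 1 kb of one. Near all protein-coding genes these shares were 12% and 38.1%.

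The LCE proteins are short, cysteine-rich or glycine-rich precursors of the cornified envelope made late in differentiation. At LCE3E, the region at 152566606 to 152567050 had 31 reads at its summit in p63 (exact 95% Poisson interval 21.1 to 44), with a −log10 q of 28.99, and no peak in CTR. Its summit lay 68 bp upstream of the TSS. At LCE1C, the region at 152806425 to 152806967 had 25 reads in p63 (16.2 to 36.9), a −log10 q of 17.87 and no peak in CTR, with its summit 45 bp upstream of the TSS. The region over the start of LCE3A had 10 reads in CTR and 22 in p63, with −log10 q values of 5.19 and 15.43. Thus 2 of the 3 LCE start sites had no deposited CTR peak at all and the third had a weak one. The 120 bases upstream of the RefSeq start of LCE3E and of LCE1C (GRCh38.p14, strand of the gene, 5′ to 3′) are shown because the p63-only summits fall in them, and capitals mark the 11 bases centred on the summit.
LCE3E, chr1:152566781-152566900: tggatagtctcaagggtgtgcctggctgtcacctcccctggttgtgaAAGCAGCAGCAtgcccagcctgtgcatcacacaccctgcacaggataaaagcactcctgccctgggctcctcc
LCE1C, chr1:152806652-152806771: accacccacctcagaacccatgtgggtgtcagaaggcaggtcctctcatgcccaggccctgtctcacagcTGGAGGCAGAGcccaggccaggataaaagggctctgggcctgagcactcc
Neither of these RefSeq promoters held a p63 site by the definition above.

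Most LCE regions were distal. The genes LCE1B, LCE1C, LCE1D, LCE1E and LCE1F shared a region at 152794296 to 152794890, 2.23 kb upstream of LCE1D, with 8 reads in CTR (3.45 to 15.8) and 38 in p63 (26.9 to 52.2), a 4.75-fold difference that was the largest among the 56 matched regions of the complex. Its rank by −log10 q was at the 10.2 percentile of all CTR peaks and at the 82.3 percentile of all p63 peaks. This region passed the threshold in p63 and not in CTR, so the direction of the difference partly follows from that filter. Within 20 kb of LCE4A, 2 regions had no CTR peak, at 152718155 to 152718705 with 30 reads (20.2 to 42.8) and at 152726000 to 152726634 with 24 reads (15.4 to 35.7) in p63. The first of them holds the LCE4A site printed above. It lies closer to the start of C1orf68, at 152719522, a gene within the complex that is no member. Another p63-only LCE region, 17.2 kb upstream of LCE1F, had 15 reads in CTR and 19 in p63.

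Upstream of LCE5A were a p63-only and a shared region less than 1 kb apart. The first, at 152501728 to 152502061, had 18 reads in CTR (10.7 to 28.4) and 59 in p63 (44.9 to 76.1), and its −log10 q of 37.19 was the highest of the 27 p63-only regions. The second, at 152502658 to 152503244, had 36 and 66 reads and holds the LCE5A site with 2 mismatches. Both regions had over 1.5 times as many reads in p63. The first passed the threshold in p63 alone, a filter that favours this direction.

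Downstream of LCE6A the same arrangement was found, with a shared region at 152855653 to 152855981 (25 reads in CTR and 54 in p63) and a p63-only region at 152858010 to 152858483 (15 and 50 reads, intervals 8.4 to 24.7 and 37.1 to 65.9). Each of these holds a p63 site with 3 mismatches. The strongest p63-list region of the complex, at 152517089 to 152517784, lay 3 kb from the TSS of CRCT1, which encodes a cysteine-rich protein, and within 20 kb of LCE5A. It had 55 reads and a −log10 q of 43 in CTR and 121 reads and 99.9 in p63. In all 9 matched regions within reach of an LCE gene, this one included, the p63 list had more reads, with a median log2 ratio of 1.14, and 7 of them differed at least 1.5-fold. However, 5 of the 9 reached the threshold in p63 alone, a filter that favours this direction, and the other 4 had a median of 0.99.

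Of the 18 LCE genes, 5 had an open region in CTR (LCE5A, LCE2B, LCE2A, LCE4A and LCE6A) and 14 in p63. The 3 genes LCE2B, LCE2A and LCE4A shared their CTR region, at 152699566 to 152700286 in the p63 list, which had 20 reads in CTR and 27 in p63. LCE3C and LCE1A had only p63 peaks below the threshold, with highest −log10 q values of 7.4 and 9.1, and LCE2D and LCE2C had no peak in either list. LCE genes lie in tandem and some resemble each other closely, and how reads with several matching places were handled is not given in the sources used here, so reads may have been split or lost between copies.

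SPRR proteins are proline-rich cross-bridges of the envelope. Of the 4 p63-only regions near SPRR genes, 2 had weak CTR peaks and 2 had none. The strongest, at 153032866 to 153033412, lay 1.92 kb downstream of the start of SPRR1B and within 20 kb of SPRR2D, and had 14 reads in CTR (7.65 to 23.5) and 35 in p63 (24.4 to 48.7). The second, 3.32 kb upstream of SPRR4 at 152967037 to 152967580, had 13 reads in CTR (6.92 to 22.2) and 37 in p63 (26.1 to 51). Both regions were chosen for passing the threshold in p63 and not in CTR, so the direction of these counts follows from that choice. Absent from CTR were a region 2.75 kb upstream of SPRR1A, at 152981229 to 152981519, with 21 reads, and one 16 kb upstream of SPRR4, at 152953881 to 152954705, with 22 reads.

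The strongest shared SPRR region, in an intron of SPRR2E at 153100304 to 153100585 and also near SPRR2F, had 23 reads in CTR and 32 in p63. The shared region upstream of SPRR3 had 22 and 25. Next to these, SPRR4 had the CTR-only region at 152968956 to 152969347, 1.48 kb upstream of its TSS, with 20 reads in both lists and −log10 q values of 11.99 in CTR and 7.17 in p63. It was thus on different sides of the threshold at the same number of reads. SPRR2A had 1 p63 peak below the threshold (−log10 q 7.4), SPRR2G 1 CTR peak below it (5.19), and SPRR2B no peak in either list. The SPRR2 genes are also close copies of each other.

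The fused-type genes had the fewest open regions per 100 kb of the subgroups in p63, and the largest difference in reads among their matched regions was at RPTN, the gene of the envelope precursor repetin. This shared region at 152167822 to 152168433, 8.77 kb upstream of RPTN in an intron of the pseudogene PUDPP2, had 17 reads in CTR (9.9 to 27.2) and 61 in p63 (46.7 to 78.4), which is 3.59-fold. It holds the RPTN site above, the closest match to the p63 consensus among the open regions of the complex. Its −log10 q was 10.03 in CTR and 51.5 in p63, so it was counted as shared by a margin of 0.03. A second shared region 3.77 kb upstream of RPTN had 28 and 38 reads, and a region in the coding exon of TCHH, the trichohyalin gene of the hair root sheath, had 40 and 42.

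CRNN, which encodes cornulin of squamous epithelia, had 2 p63-only regions. One at 152398975 to 152399572, in an intron of FLG-AS1, had 15 reads in CTR and 22 in p63, and its CTR −log10 q of 9.88 was just under the threshold. The other, at 152409744 to 152410256 in a coding exon of CRNN, had 24 reads in p63 and no CTR peak. FLG, which encodes filaggrin, had peaks below the threshold in both lists, the higher of them within 1 kb of its TSS with 11 reads in CTR and 13 in p63. HRNR had 1 such peak per list (−log10 q 2.56 and 2.02), TCHHL1 1 in p63 (4.46), and FLG2 none. Read counts at FLG therefore differed by less than their counting error, and 4 of the 7 fused-type genes had no open region in either list.

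Among the other genes, IVL, the gene of the envelope scaffold involucrin, had a strong shared region at 152905794 to 152906639, 2.28 kb upstream of its TSS. This region had 104 reads in CTR and 126 in p63, with −log10 q values of 74.7 and 90.7, so it was already open with KLF4 alone. The CTR-only region 17.7 kb downstream, at 152926200 to 152926671, had 18 and 13 reads. SMCP, a gene of the sperm mitochondrial capsule that lies in the complex, had a shared region (28 and 29 reads), a p63-only region in its intron absent from CTR (21 reads) and a CTR-only region at 152885025 to 152885332 (16 and 17 reads). PRR9 had a shared region with 27 and 26 reads and an absent one with 17. PGLYRP3, which encodes a peptidoglycan recognition protein, had a p63-only region with 17 and 30 reads, and next to it one with 26 reads in p63 and no CTR peak. LORICRIN, the gene of the main envelope protein, had no peak in either list.

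Most S100 regions were open in both lists. They had a median of 61 reads in CTR and 58 in p63, above the whole-list median of 33, but a lower median fold enrichment over local background, 7.29 and 7.51 against 9.37 and 9.59. Of the 26 CTR regions, 23 were shared. The strongest p63-list region lay at an alternative GENCODE start of S100A11, which encodes a transglutaminase substrate of the envelope, at 152047700 to 152048681, with 121 reads in CTR (100 to 145) and 152 in p63 (129 to 178). The RefSeq start of S100A11 lies in another region, at 152036411 to 152037314, with 48 and 53 reads. At S100A10, the partner of annexin A2, the region at an annotated start within the gene had 99 and 92 reads, while the region at the RefSeq start, at 151993482 to 151994232, had 52 and 58. The counts were 77 and 76 at the S100A6 start, 85 and 106 in the region shared by starts of S100A13 and S100A1, 120 and 103 at a start of S100A16 and 67 and 57 at the S100A3 start. The region nearest to S100A14, 0.759 kb upstream of its start, had 67 and 71 reads. Intervals of the lists overlapped at each of these. S100A5 had no open start but was within 20 kb of 4 CTR and 5 p63 regions of its neighbours, and 8.8 kb from the S100A6 TSS was a p63-only region absent from CTR, with 19 reads.

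S100A4 and S100A2 lie close together, and the counts at their starts had opposite orders in the lists, with intervals that still overlapped. At the S100A4 start, the region at 153544910 to 153545989 had 80 reads in CTR (63.4 to 99.6) and 113 in p63 (93.1 to 136). At the S100A2 start, the region at 153565487 to 153566996 had 127 reads in CTR (106 to 151) and 87 in p63 (69.7 to 107). It was the strongest CTR-list region of the complex, with a −log10 q of 81.6, against 42.1 in p63. S100A2 in turn had a p63-only region 9.85 kb upstream, at 153577541 to 153577958, with 15 reads in CTR (8.4 to 24.7) and 37 in p63 (26.1 to 51). This region passed the threshold in p63 alone, a filter that favours more reads in p63. About 1 kb from it was a CTR-only region at 153578537 to 153579220 with 19 and 18 reads.

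Around S100A10 and S100A11, which lie at the other end of the complex, 4 p63-only regions were found. At 151976872 to 151977138, 15.5 kb from the S100A10 TSS, the lists had 20 and 38 reads, and at 151988553 to 151988878 in an intron of S100A10 they had 34 and 59. At 152024122 to 152024500, 12.6 kb downstream of the S100A11 start, they had 10 (4.8 to 18.4) and 28 (18.6 to 40.5), and this region holds the S100A11 site. The fourth, at 152013779 to 152014059, had 12 and 15. All 4 passed the threshold in p63 alone, a filter that favours more reads in p63. CTR had more reads at a shared region downstream of S100A10 (39 and 25) and at one in an intron of S100A11 (61 and 40), the only 2 matched regions of the complex with at least 1.5 times as many reads in CTR. S100A11 also had a CTR-only region, at 152029044 to 152029520, with 23 and 18 reads.

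The S100 genes of inflamed or differentiated epidermis lie next to PGLYRP4, in a stretch with few open regions. S100A9 and S100A8, which encode the subunits of calprotectin, and S100A12 had no open region in CTR. In p63 they shared a region at 153371318 to 153371611 that was absent from CTR, with 20 reads (12.2 to 30.9), and it holds the S100A12 site. S100A9 and S100A12 were also near a p63-only region at 153355409 to 153355739 with 17 and 21 reads. S100A7, the gene of the antimicrobial protein psoriasin, had a shared region with 17 and 19 reads and a CTR-only one, at 153465840 to 153466142, with 18 and 14. S100A7A, its close copy, had 1 CTR peak below the threshold (−log10 q 7.15) and none in p63. No start site of these 5 genes was open in either list.

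**Figure D3:**
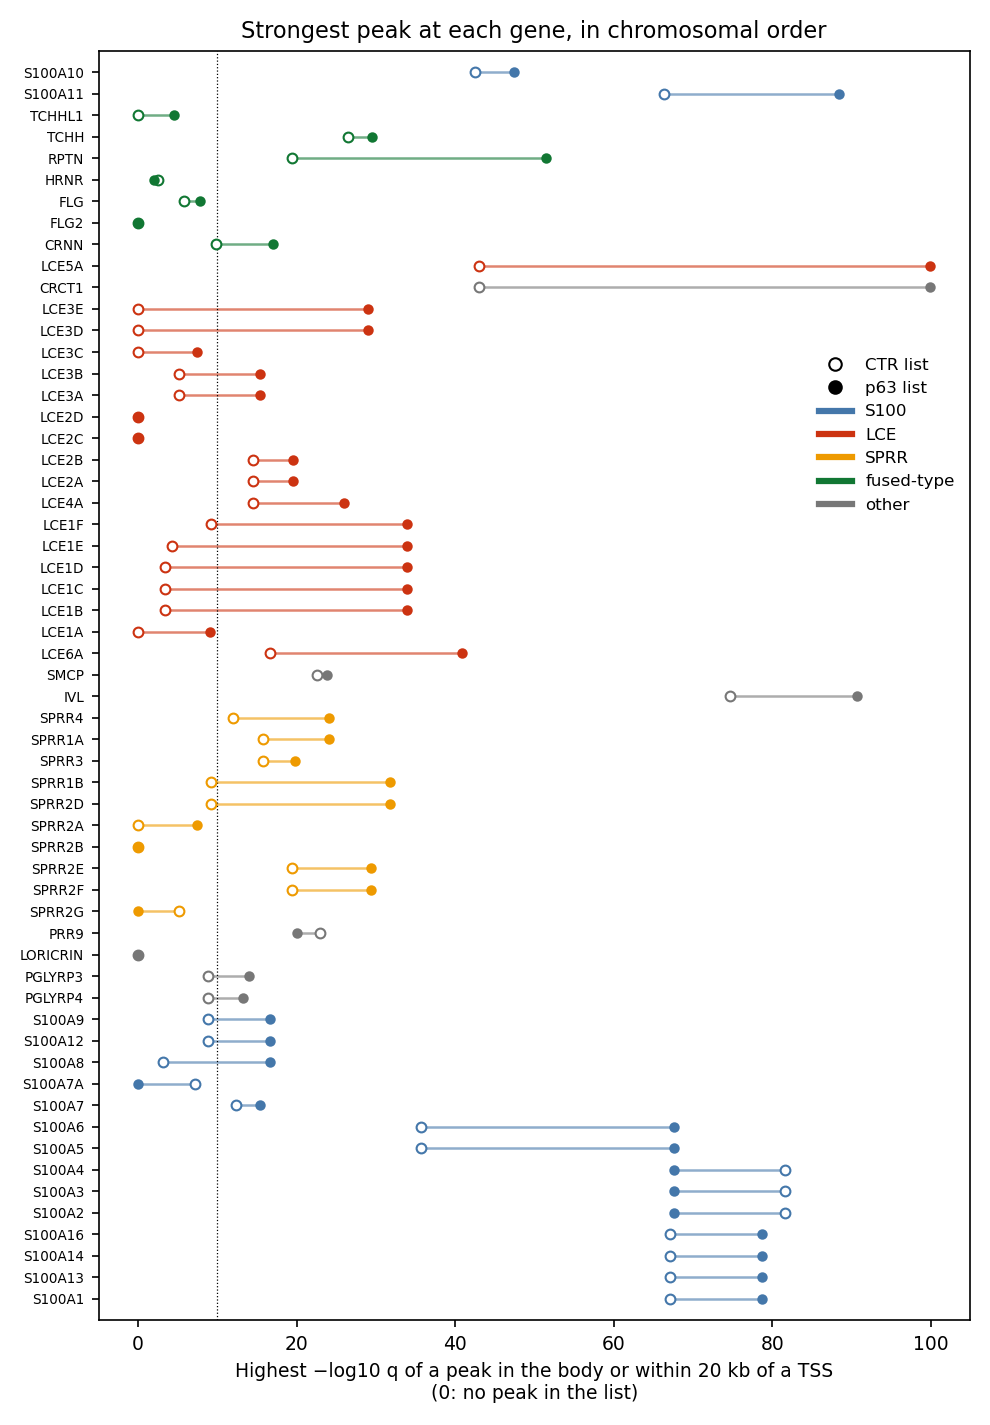
Highest −log10 q of a peak at each of the 58 genes in chromosomal order (x axis, 0 where the list has no peak) in the CTR list (open circles) and the p63 list (filled circles), coloured by subgroup. The dotted line is the threshold of 10; 9 LCE genes are left of it in CTR and right of it in p63, while the S100 genes at both ends lie far to its right in both lists.

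Matched regions had more reads at the summit in p63 at most of the complex. Of the 56 pairs that overlapped and reached the threshold in at least 1 list, 41 (73.2%) had more reads in p63, against 49.8% of all such pairs in the genome. At least 1.5 times as many reads in p63 were found in 16 (28.6%, against 12.8%), and at least 1.5 times as many in CTR in 2 (3.57%, against 10.4%). Of the 56 pairs, 15 reached the threshold in p63 alone and 6 in CTR alone, and in these the direction partly follows from the threshold. Among the 35 pairs at the threshold in both lists, a comparison chosen after seeing the data, 25 (71.4%, against 50% in the genome) had more reads in p63. In 5 (14.3%, against 7.27%) p63 had at least 1.5 times as many, in 2 (5.71%, against 4.83%) CTR did, and the median log2 ratio was 0.16. Over all 56 pairs the median log2 ratio of p63 over CTR was 0.29 with quartiles of −0.005 and 0.80, while over all pairs it was 0 with quartiles of −0.28 and 0.31. By subgroup within 20 kb the medians were 1.14 for the 9 LCE pairs, 0.50 for the 4 fused-type pairs, 0.48 for the 5 SPRR pairs, 0.29 for the 10 pairs of the other genes and 0.15 for the 32 S100 pairs. The 4 LCE5A, CRCT1 and S100A9 pairs within reach of more than 1 subgroup were counted in each. These medians include pairs that reached the threshold in 1 list alone. For pairs at the threshold in both lists, the medians were 0.99 for 4 LCE pairs and 0.44 for 3 fused-type pairs. They were 0.33 for 2 SPRR pairs, 0.28 for 5 pairs of the other genes and 0.096 for 23 S100 pairs.

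**Figure D4:**
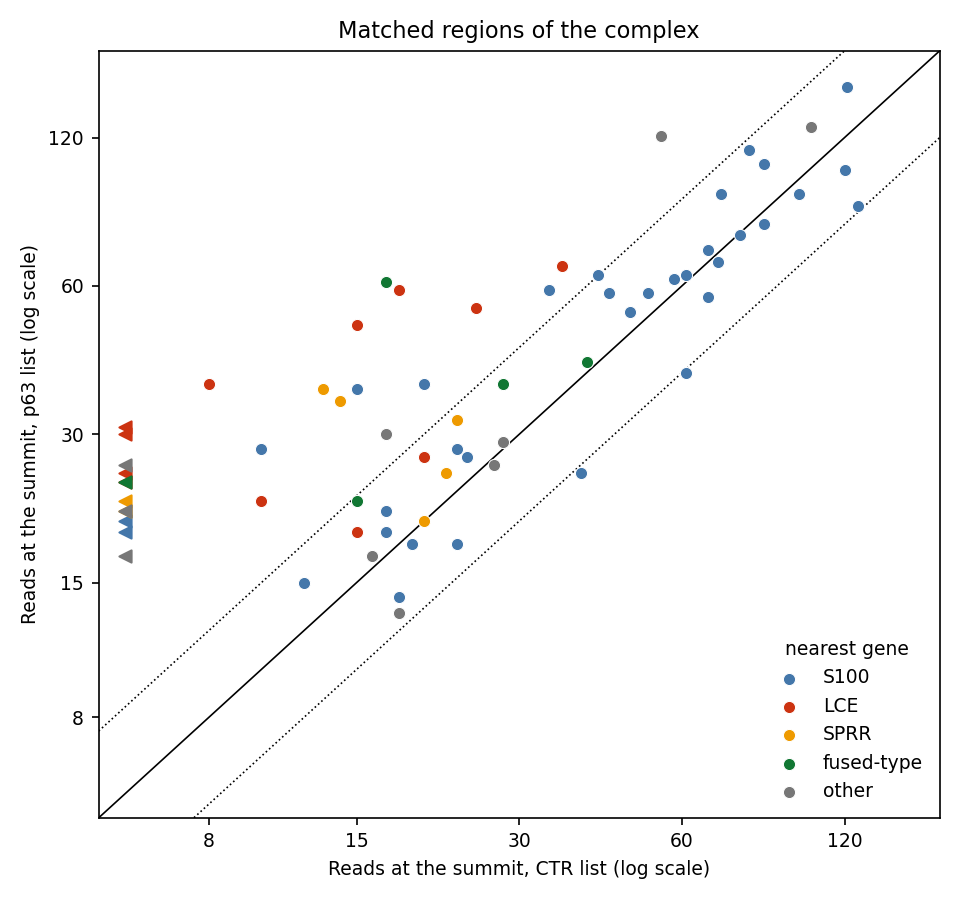
Reads at the summit in the CTR list (x) and the p63 list (y) for the 56 matched regions of the complex, both on log scales. Colours give the subgroup of the nearest member gene. Triangles at the left edge are the 12 p63-only regions without a CTR peak, the solid line marks equal counts and the dotted lines 1.5-fold; all LCE points lie above the solid line, and 2 S100 points lie on or under the lower dotted line.

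The 6 CTR-only regions had 16 to 23 reads in CTR and 13 to 20 in p63, with p63 −log10 q values from 7.17 to 9.55. Their Poisson intervals overlapped in every case. The 15 p63-only regions with a weak CTR peak had 15 to 59 reads in p63 and 8 to 34 in CTR, with CTR −log10 q values from 3.04 to 9.88. The 12 absent regions had 17 to 31 reads in p63 and no CTR peak at any level, while the CTR peaks below the threshold at the complex had as few as 6 reads. The number of CTR reads at the absent regions is not given by the lists.

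A p63 site was found in 4 of the 27 p63-only regions at the complex (14.8%, 5.92 to 32.5%), against 11.4% of p63-only regions in the genome. Of the 35 shared p63-list regions 4 held one (11.4%, 4.54 to 26%), against 1.39% of shared regions in the genome. These 4 were the RPTN, LCE5A, LCE6A and S100A10 regions, and the first 3 had 3.59, 1.83 and 2.16 times as many reads in p63 as in CTR, while the S100A10 region had 62 reads against 58. The count depended on the summit used. At the CTR-list summits 2 of the 35 shared regions held a site (5.71%, 1.58 to 18.6%), against 1.02% in the genome. These 2 were the LCE6A region and the region at the S100A6 start. Of the 6 CTR-only regions 0 held a site (Wilson upper bound 39%). In all, 8 of 62 (12.9%, 6.69 to 23.4%) p63-list regions at the complex held a site, against 3.78% of the whole list.

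The AP-1 motif TGANTCA, which reads the same on both strands, was present near the summit (100 bp to either side) of 8 among 27 p63-only regions (29.6%, against 29.4% in the genome) and in 15 of 35 shared ones (42.9%, against 33.5%). The KLF motif GGGNGTGG, searched on both strands, lay in 6 of 27 p63-only regions (22.2%, 10.6 to 40.8%, against 10.7%) and 10 of 35 shared ones (28.6%, 16.3 to 45.1%, against 9.85%). The regions at the complex had a median GC content of 52.5%, against 50.2% over the whole p63 list, and its part in the KLF share was not tested. All 3 motifs were searched without overlap rules, so a region could count for several.

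The promoters of the members were compared by sequence too, in windows from 250 bases before to 50 after the RefSeq start. Of the 58 members 54 had an entry, 62 in all. The AP-1 motif was in 19 of the 62 (30.6%), against 7.71% of all 35116 promoters. It was in 6 of 8 SPRR entries, 6 of 7 fused-type, 3 of 6 other, 4 of 23 S100 and 0 of 18 LCE entries. The TATA box letters TATAAA, on either strand, were in 30 of the 62 (48.4%), against 11.5% of all promoters, with 7 of 8 SPRR, 5 of 7 fused-type, 8 of 18 LCE, 8 of 23 S100 and 2 of 6 other entries. They were counted anywhere in the window, and in LCE1E and LCE1A they lay far upstream of the start. Overlapping entries of a gene, as at S100A8, can hold the same letters. The SPRR and fused-type promoters, in which these letters were most frequent, had no open region within 1 kb of the TSS in either list. The KLF motif was in 6 of the 62 (9.68%), against 17.2%.

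A p63 site lay in 3 of the 62 promoter entries (4.84%), against 1.12% of all promoters. They are printed on the strand of the gene because their genes differ in accessibility.
FLG: GAACTTGCTGAAACAAGTAC
LCE1E: GGGCAAGTCCTCTCATGCCC
S100A6: GGGCTTGGCCGAGCTGGCCT
The first bases lie at −188, −88 and −66 from the RefSeq start, and the sites have 2, 3 and 2 mismatches. The FLG start had 11 reads in CTR and 13 in p63, below the threshold in both. The LCE1E start had no CTR peak and 8 reads in p63, with a −log10 q of 3.56. The S100A6 start was open in both lists, with 77 and 76 reads. Of the 3 members with such a site, the S100 gene was thus open and the FLG and LCE1E starts were below the threshold.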

How the data were processed

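ATAC-seq reads of the 4 BJ samples were mapped by the authors to hg38 with Bowtie2 2.3.4.3, and peaks were called with MACS2 from both replicates of each group, per the methods and the submitters' processing notes. The MACS2 version and options, the treatment of duplicates and of reads with several matching places, and any transposase shift are not given in the sources used here. Each deposited peak had a fold enrichment (the ratio of pileup to local background at the summit), a −log10 p and −log10 q, and the summit's offset in bp from the peak start. Per the labels, 2 groups of 2 samples were compared, and the deposited lists give no value per replicate.

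Peaks on chromosomes 1 to 22, X and Y were used (101142 of 103700 for CTR and 109486 of 112294 for p63). Summits were assigned to genes with GENCODE release 44. A −log10 q of at least 10 follows the study's count of open regions. Its methods also name a filter of 20 for sorted peak files, which was run as an alternative. Reads at the summit were solved from the deposited fold enrichment and −log10 p as (pileup + 1)/(background + 1) and an upper Poisson tail, and 100% came out whole within 0.001 on the −log10 p scale. They are reads of the pooled samples, unscaled between lists. The steps were tested on simulated data. Python 3.11.15, pandas 2.3.3, numpy 2.4.6, scipy 1.17.1 and pysam 0.24.0 were used. Shares have Wilson and read counts exact Poisson 95% intervals, for counting error only, since reads may include PCR copies. Promoter sequences are from RefSeq (GRCh38.p14), the others from hg38, with 1-based coordinates.

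All 58 members were accounted for. Named regions were the 15 p63-only regions with the highest −log10 q (of 27), every CTR-only region, the strongest shared region of each subgroup and every member with an open start, and the remaining named ones were chosen after their values were seen. The members, lists and rules were chosen with earlier results of these data known. Alternatives varied the threshold, the window, the TSS set, the overlap rule, the merging of peaks, the number of peaks, the site's mismatches and the motif window.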

Additional observations from a re-analysis of the deposited data

How the results depend on the processing

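Under the alternatives, 62 values stayed within 1.5 times of the value given, or within its interval for a share, and 29 moved further. Without a threshold the counts were 84 in CTR and 112 in p63, with 11 CTR-only regions, 7 p63-only regions with a p63 site, and 50, 21, 11 and 14 p63-list regions at S100, LCE, SPRR and fused-type genes. A threshold of 20 on the −log10 q scale left 22 regions in CTR and 32 in p63, 13 p63-only and 3 CTR-only, with 14 at S100, 3 at SPRR and 3 at fused-type genes and 19 genes with a p63-only region. A 10 kb window left 16 p63-only regions, 8 regions at LCE genes and 1 p63-only region with a site. The 34 CTR regions, 4 CTR-only regions and 24 p63-list regions at S100 genes in that window stayed within 1.5 times. A 50 kb window gave 21 regions at LCE and 11 at fused-type genes and 51 genes with a p63-only region. Requiring absence from the other list gave 12 p63-only regions, 0 CTR-only regions, a share of 19.4%, 19 genes and 2 regions with a site. With at most 4 mismatches 8 p63-only regions held a site, and with at most 2 mismatches 0 did. The share of p63-only regions was 34.8 to 44.6% under all alternatives other than the absence rule. The share over the whole p63 list was 23.9% at the main setting, 27.1% without a threshold and 12% under the absence rule. It is not given for the other alternatives, so the difference from the whole list is not known there.

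No paired analysis was possible because each group has a single list of both replicates, and for the same reason leaving out a replicate could not be run. No p-value was computed. Regions with fewer than 15 reads at the summit were below the threshold in both lists, so a region called p63-only may hold CTR reads below it. Subgroup shares rest on 5 to 31 regions.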

Other observations

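Of 4 genes that lie within the complex but are no members, KPRP, LELP1 and C1orf68 had a p63-only region within 20 kb or in the gene body and S100A7L2 had no peak in either list. The start of KPRP, which encodes a proline-rich keratinocyte protein, had 15 reads and a −log10 q of 9.25 in CTR and 19 reads and 11.3 in p63, and this is the region counted above for LCE1F. The highest −log10 q at KPRP was 37.3 in CTR and 49.2 in p63. Among 6 genes that flank the complex, THEM4, CHTOP and SNAPIN had an open start in both lists, with 88 and 85, 85 and 80, and 75 and 77 reads, and THEM5 only in p63 (12 and 25 reads). For these flanking genes the reads are the highest near any TSS of the gene, taken in each list on its own.

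Among 9 genes elsewhere in the genome whose products build or process the cornified envelope, 6 had an open region in CTR and 8 in p63. Of all protein-coding genes, 85.1% had one in CTR and 86.7% in p63. A p63-only region lay at 7 of the 9 (77.8%, against 40.1% of protein-coding genes). This share was 66.7% for the 6 flanking genes, 50% for the 8 fibroblast markers and 50% for the 6 keratinocyte markers. Within 1 kb of a TSS, 1 of the 9 envelope genes had an open region in CTR and 4 in p63, against 64.3% and 64.8% of protein-coding genes. These starts belong to the transglutaminases TGM1 (20 reads in CTR and 82 in p63, −log10 q 10.01 and 60.6), TGM3 (no peak in CTR and 22 reads in p63) and TGM5 (13 and 44 reads), which cross-link the envelope, and to EVPL, the gene of the plaque protein envoplakin (no peak in CTR and 29 reads in p63). At PPL, the gene of its partner periplakin, the start had 9 and 14 reads, below the threshold in both lists. CSTA and CALML5 had a p63-only region but no open start, CDSN had a shared one, and CASP14 had no peak in either list. The highest count within 1 kb of a TSS was thus 4.1 times as high in p63 as in CTR at TGM1, and 3.38 times at TGM5. These genes have several TSS and each list's highest count was taken on its own, so both counts need not come from the same region. The TGM3, TGM5 and EVPL starts passed the threshold in p63 alone, a filter that favours more reads in p63.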
